A study of Mus musculus with 4 samples.

Results

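The MAP kinase phosphatases of the Dusp family were taken as the genes Dusp1, Dusp2, Dusp3, Dusp5, Dusp6, Dusp7, Dusp8, Dusp9, Dusp10 and Dusp16, by the gene symbol in the authors' deposited table. Of these 10 genes 9 had a row there, on 15 of the 41174 probes of the array, out of 21260 gene symbols in all, and Dusp5 was not analysed here. Liver RNA came from 3-month-old male C57Bl/6 mice. In 1 group 4 animals carried a mutant Wrn, the gene of a RecQ-type DNA helicase, and drank 0.4% vitamin C from weaning; in the other, 4 wild-type animals were the untreated controls. RNA of 1 treated mutant (Cy5) was hybridised together with that of 1 untreated wild type (Cy3) on each of 4 Agilent arrays. As no array had the dyes reversed, and neither untreated mutants nor treated wild types were analysed here, the effects of genotype, of vitamin C and of the dye cannot be told apart in any value below. The labels name no further detail of the Wrn allele. The family was selected on the log2 ratios of this same comparison, so its ratios are given as a description with no p-value, and counts of members past a threshold stand only beside the share of all probes past it.

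MAP kinases (ERK, JNK and p38) are switched on when an upstream kinase phosphorylates a threonine and a tyrosine in their activation loop. Dual-specificity phosphatases remove both phosphates and so end the signal. Many Dusp genes are themselves induced by the pathways they shut off, which makes them feedback inhibitors. In the liver Dusp1 and Dusp6 have been studied for their part in gluconeogenesis and lipid metabolism.

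Across the family, the transcripts of Dusp1 and Dusp6 were lower in the livers of treated mutants, without overlap between the groups. Of 38927 probes measured on all arrays, 4.28% had every mutant level below every wild-type level. The transcript of Dusp7 was lower by less. The mean log2 ratio on the other member probes lay between -0.44 and 0.28. Ratios are mutant over wild type, on the log2 scale after loess normalization. Dusp1 had a mean log2 ratio of -1.32 ± 0.28 (SD, n = 4), a level 2.5-fold lower in the mutant, and Dusp6 one of -1.04 ± 0.29, or 2.05-fold lower. Of the 39080 probes kept, 43 (0.110%) had a mean log2 ratio of -1 or lower. The median over the 15 member probes was 0.01, beside 0.00 over all probes kept, whose middle quartiles ran from -0.09 to 0.09. A mean within 0.1 of 0 was found on 7 member probes and on 54.4% of all probes kept.

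**Figure D1:**
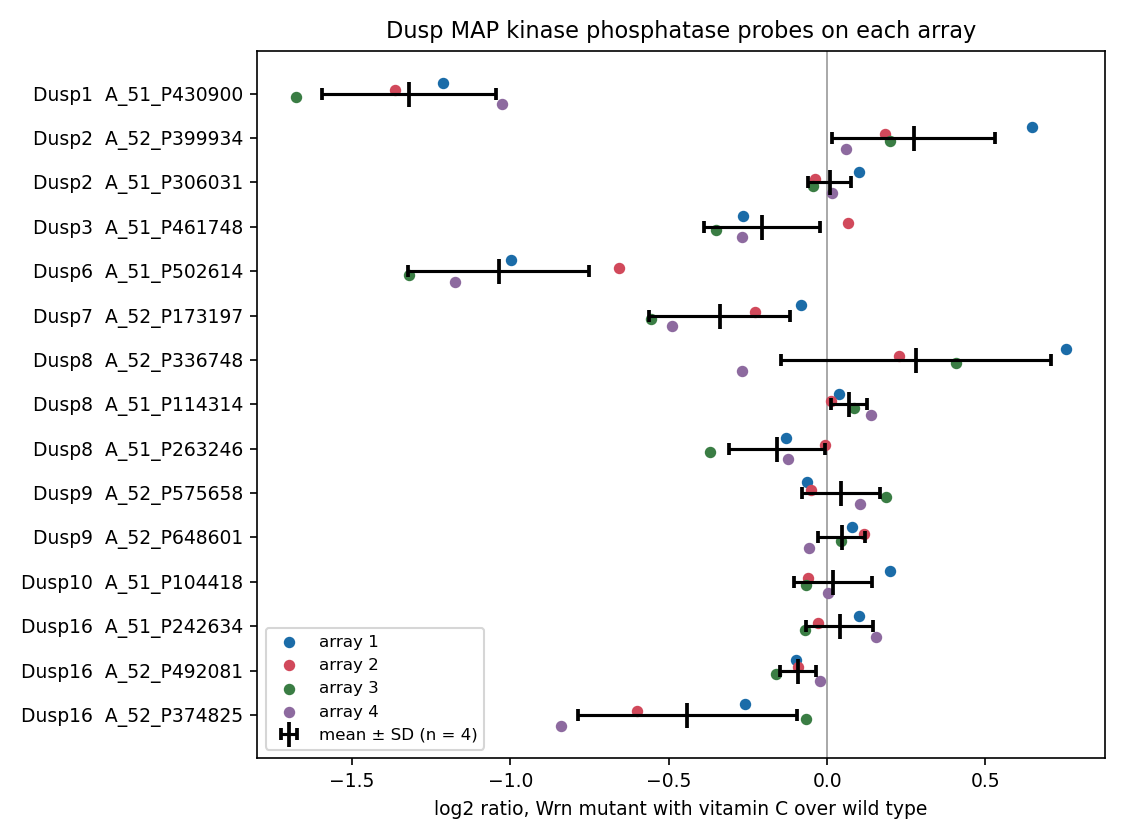
Log2 ratio of mutant with vitamin C over wild type (x axis) for each of the 15 member probes (rows, with the probe name), with 1 coloured point per array and a black bar for the mean ± SD of 4 arrays. All points of Dusp1 lie at -1.03 or lower and all of Dusp6 at -0.66 or lower, whereas most other probes lie around 0.

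The facts of the arrays that bear on these values were as follows. Between 94.4% and 96.1% of probes were well above background in either channel of arrays 2 to 4, but 82.5% and 84.2% in the mutant and wild-type channel of array 1. The wild-type animal of array 4 stood apart in the acute phase gene Lcn2, at a log2 level of 15.5 against 8.79 to 9.27 in the other wild-type animals. The mutant of that array was at 12.3 against 8.44 to 8.84. Another acute phase gene, Saa1, was lower in the mutant on every array. Its levels were 14.45, 13.97, 15.14 and 15.56 in the mutants and 15.42, 16.39, 17.48 and 19.76 in the wild-type animals. The difference in Saa1 was thus not confined to array 4. Without array 4 the log2 ratio was -1.42 for Dusp1 and -0.99 for Dusp6, and without array 1 it was -1.36 and -1.05. All 8 hepatocyte markers looked for were measured above background. The Wrn probes kept had log2 ratios of 0.41 ± 0.10, 0.00 ± 0.02 and -0.07 ± 0.06 (SD, n = 4). Their place relative to the mutation is not known here, so they do not check the labels. The series' design text calls the replicates biological and independent, and their number limits the precision of every value.

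Promoter windows from RefSeq (GRCm38.p6), from 250 bases before to 50 bases after the annotated start, were present for 9 members, Dusp5 among them and Dusp9 not. Those of Dusp1 and Dusp6, the members with the lowest ratios, are shown with that of Dusp8, which holds the same cyclic AMP response element as Dusp1 and whose probes had mean log2 ratios from -0.16 to 0.28. They are the windows chr17:26508423-26508722 (minus strand), chr10:99262981-99263280 (plus strand) and chr7:142095235-142095534 (minus strand), each written 5′ to 3′ along the gene. Capitals mark, on either strand, the letters TGACG (the core of the element, found on each strand of the whole element TGACGTCA, so that a whole one counts as 2 cores), the GC box GGGCGG, the box CCAAT, the TATA box TATAAA, the ETS factor site CCGGAA and the CArG box of serum response factor.
Dusp1: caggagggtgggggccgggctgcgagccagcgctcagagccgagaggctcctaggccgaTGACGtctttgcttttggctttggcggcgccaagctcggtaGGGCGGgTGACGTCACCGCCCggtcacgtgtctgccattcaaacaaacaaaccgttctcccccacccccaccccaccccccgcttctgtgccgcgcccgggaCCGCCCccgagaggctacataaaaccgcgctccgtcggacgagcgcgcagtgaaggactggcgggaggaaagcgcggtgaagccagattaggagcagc
Dusp6: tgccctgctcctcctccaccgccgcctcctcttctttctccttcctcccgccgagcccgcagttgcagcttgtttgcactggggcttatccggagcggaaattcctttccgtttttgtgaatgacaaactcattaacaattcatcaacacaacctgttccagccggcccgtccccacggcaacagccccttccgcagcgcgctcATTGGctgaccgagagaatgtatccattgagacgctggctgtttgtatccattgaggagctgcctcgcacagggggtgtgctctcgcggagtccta
Dusp8: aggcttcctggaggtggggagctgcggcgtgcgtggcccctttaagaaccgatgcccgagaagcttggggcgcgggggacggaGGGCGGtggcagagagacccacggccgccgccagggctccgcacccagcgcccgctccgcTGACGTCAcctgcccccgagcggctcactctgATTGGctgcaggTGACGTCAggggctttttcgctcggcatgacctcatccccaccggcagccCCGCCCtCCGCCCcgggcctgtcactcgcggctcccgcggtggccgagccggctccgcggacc

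The Dusp1 window held the whole element TGACGTCA once, with its first base at -143 from the start, a further core at -191, and 3 GC boxes at -150, -135 and -48. The Dusp8 window held the whole element at -107 and -63 together with 3 GC boxes and 1 CCAAT on the minus strand. Of these letters the Dusp6 window had only 1 CCAAT, at -46 on the minus strand. The whole element was present in 2 of the 9 member windows and in 1.79% of all 32851 windows of that length; the core in 5 of 9 and 20.8%; the GC box in 8 of 9 and 35.7%; CCAAT in 6 of 9 and 37.4%. TATAAA (13.6% of all windows), CCGGAA (14.9%) and the glucocorticoid receptor letters AGAACA (19.0%), were in 0 of the 9 windows, and a CArG box (1.63%) was in 1, that of Dusp5. The window of Dusp1 was 67.0% G and C, that of Dusp6 57.3% and that of Dusp8 73.3%, beside a median of 52.7% over all windows. These matches describe the letters alone.

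Among the inducible nuclear members, Dusp1 (MKP-1) acts mainly on p38 and JNK and is an immediate early gene. Its log2 ratio was -1.21, -1.37, -1.68 and -1.03 on arrays 1 to 4. In the wild-type animals of arrays 1, 2, 3 and 4 the log2 level of Dusp1, after normalization between arrays, was 13.68, 13.58, 13.77 and 13.13, and in the mutants 12.46, 12.21, 12.09 and 12.11. Every mutant lay below every wild-type animal, and the wild-type animal of array 4 was the lowest of its group. Levels that leave no overlap in this direction were found for 4.28% of 38927 probes measured on all arrays, and levels without overlap in the other direction for 2.90%. The SD was 0.28 among wild-type animals and 0.17 among mutants. In whole liver, fewer cells of a type and less RNA per cell cannot be told apart.

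Dusp2 (PAC-1), another nuclear phosphatase, induced in immune cells, was read by a pair of probes. The probe A_52_P399934 had log2 ratios of 0.65, 0.18, 0.20 and 0.06 on arrays 1 to 4, a mean of 0.27 ± 0.26 (SD, n = 4). All were positive, but the highest came from array 1, where the log2 level on this probe was lowest in both channels, 8.19 in the wild type and 8.84 in the mutant, against 9.63 to 10.2 on the other arrays. The probe A_51_P306031, which the files assign to an Ensembl transcript, had a mean of 0.01 ± 0.07 with ratios on both sides of 0. The Dusp2 probes differed in sign on arrays 2 and 3.

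Of the cytoplasmic phosphatases specific for ERK, Dusp6 (MKP-3) is a feedback inhibitor that ERK signalling itself induces. Its log2 ratio was -0.997, -0.66, -1.32 and -1.17 on arrays 1 to 4. The log2 level of Dusp6 was 13.59, 14.13, 13.95 and 14.10 in the wild-type animals and 12.59, 13.47, 12.64 and 12.92 in the mutants. Again every mutant lay below every wild-type animal, as for 4.28% of all probes measured on all arrays. The mutant of array 2 was the closest to the wild-type animals. Here the SD was larger among mutants, 0.41, than among wild-type animals, 0.25, the other way round from Dusp1.

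Dusp7 (MKP-X), close in sequence and substrate to Dusp6, had log2 ratios of -0.08, -0.23, -0.56 and -0.49, a mean of -0.34 ± 0.22 (SD, n = 4), or 1.26-fold lower. Its log2 levels were 10.41, 10.75, 11.07 and 10.89 in the wild-type animals and 10.33, 10.52, 10.51 and 10.40 in the mutants. The groups overlapped, because the wild-type animal of array 1 lay within the range of the mutants. Dusp9 (MKP-4), the third cytoplasmic member and one linked to insulin signalling, had log2 ratios of -0.06, -0.05, 0.19 and 0.10 on the brighter of its probes, a mean of 0.04 ± 0.12. The dimmer Dusp9 probe had a mean of 0.05 ± 0.07, so that both probes of this gene lay near 0.

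**Figure D2:**
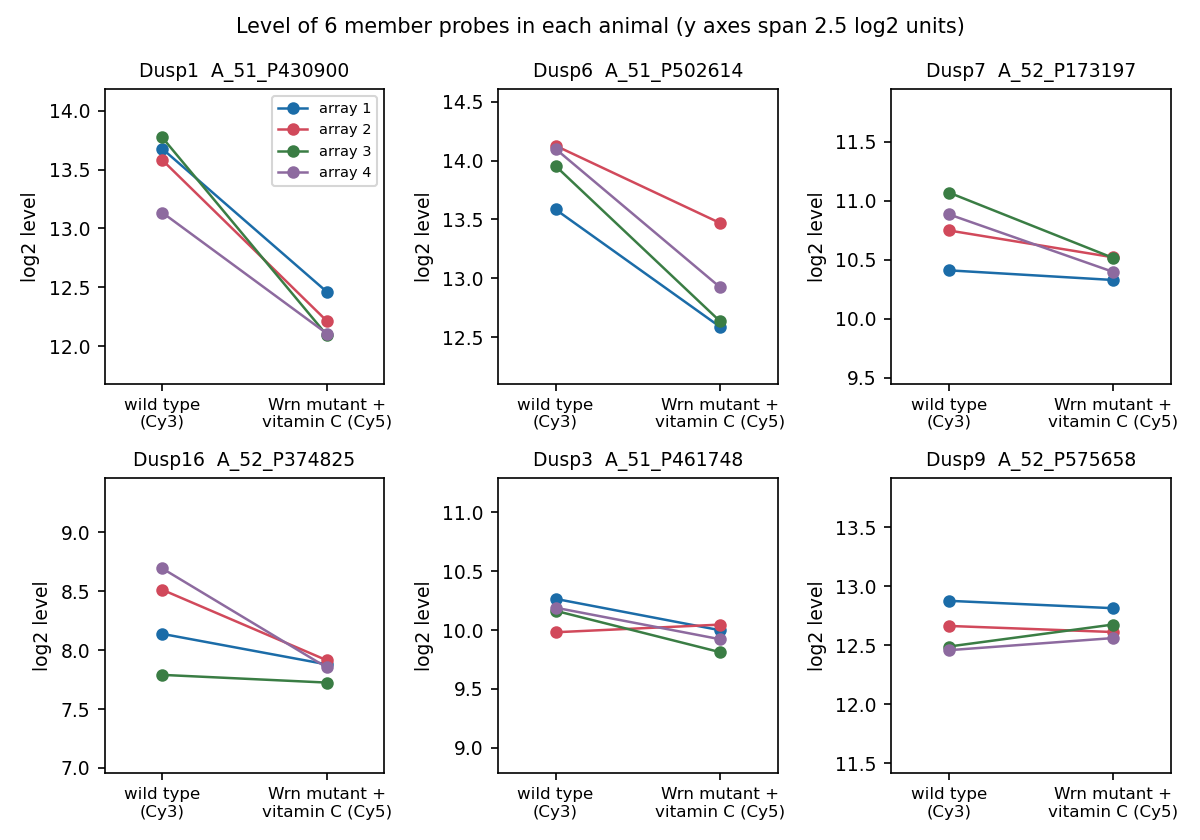
Log2 level after normalization between arrays (y axis, each panel spanning 2.5 log2 units) of 6 member probes in the wild-type animal (left, Cy3) and the mutant with vitamin C (right, Cy5) of each array, joined by a line of 1 colour per array. For Dusp1 and Dusp6 the mutants lie below the wild-type animals without overlap, as for 4.28% of all probes measured on all arrays. For the other probes shown the groups overlap.

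The members that act mainly on JNK and p38 were measured by several probes that differed among themselves. The first 30 of the 60 bases of these probes are shown, since the value of Dusp8 and Dusp16 depended on which probe was read; those of Dusp1 and Dusp6, with 1 probe each, stand beside them. They are the authors' deposited probe sequences, 5′ to 3′, with no part marked.
Dusp1 A_51_P430900: gcgtatgagagtttttacctttatttattt
Dusp6 A_51_P502614: catttggtggatgcaacaggttgagaggaa
Dusp8 A_52_P336748: gccggctccgcggacccccgccccacccgg
Dusp8 A_51_P114314: agcataggctttccctggtggctttccacc
Dusp8 A_51_P263246: aaagctctgtttttactgtctggtatttaa
Dusp16 A_51_P242634: gtacaaaatggtgattttgagcaaaactag
Dusp16 A_52_P492081: ggcatgaagagagcccctttgaaaagcagt
Dusp16 A_52_P374825: ggctcttagccagaataatgacttaagttt

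Dusp16 (MKP-7), a phosphatase with preference for JNK, gave log2 ratios of -0.26, -0.60, -0.07 and -0.84 on A_52_P374825, a mean of -0.44 ± 0.35 (SD, n = 4). On that probe the log2 level ran from 7.79 to 8.69 in the wild-type animals and only from 7.72 to 7.91 in the mutants, so that the spread of the ratio followed the wild-type animals. The files assign this probe to an Ensembl transcript. A_52_P492081, assigned to the RefSeq transcripts of Dusp16, had -0.10, -0.09, -0.16 and -0.02, a mean of -0.09 ± 0.06. A_51_P242634, assigned to a GenBank record, had a mean of 0.04 ± 0.11 with both signs. The mean ratio was below -0.1 on 1 of the 3 Dusp16 probes.

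The probes of Dusp8, a JNK and p38 phosphatase best known from neurons, spread further over the arrays. A_52_P336748 had log2 ratios of 0.76, 0.23, 0.41 and -0.27, a mean of 0.28 ± 0.43 (SD, n = 4), the largest SD of any member probe. It was also 86.7% G and C, where the other member probes had 35% to 55%. Of the probes kept, 10 reached 80% G and C, and their median SD over arrays was 0.17 against 0.10 for all probes kept. A_51_P114314 had 0.04, 0.01, 0.09 and 0.14, a mean of 0.07 ± 0.06. A_51_P263246 had -0.13, -0.01, -0.37 and -0.12, a mean of -0.16 ± 0.15, and was not well above background in either channel of array 1. It was the 1 member probe for which that held on any array, and 0 member probes were saturated. Dusp10 (MKP-5), which acts on JNK and p38, had 0.20, -0.06, -0.07 and 0.00, a mean of 0.02 ± 0.12.

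Dusp3 (VHR), an atypical small phosphatase of ERK and JNK without the MAP kinase binding domain of the other members, had log2 ratios of -0.27, 0.06, -0.35 and -0.27, a mean of -0.21 ± 0.18 (SD, n = 4). Array 2 was the exception in sign. Its log2 levels ran from 9.98 to 10.27 in the wild-type animals and from 9.81 to 10.05 in the mutants, with overlap.

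Counted over all member probes, the log2 ratio was negative on all 4 arrays for 6 of 15 (18.9% of all probes measured on 4 arrays) and positive on all 4 for 2 of 15 (21.5%), and 7 were of mixed sign. The groups did not overlap in level for 2 of 15 probes, those of Dusp1 and Dusp6 (7.18% of all probes in either direction). In limma's fit over all probes kept, with Benjamini-Hochberg adjustment, 3 of 15 member probes were past an adjusted p of 0.05, those of Dusp1, Dusp6 and Dusp7, all lower, and 0 were higher; over all probes 13.0% were past it, 6.79% lower and 6.19% higher. As the members were chosen with this contrast known, nothing is read from these counts. Dusp7 was no longer counted without array 2, 3 or 4, when its log2 ratio was -0.38, -0.27 and -0.29, nor with Agilent's processed signals or a trended, robust moderation. With the pairing of animals within arrays ignored, neither Dusp6 nor Dusp7 was counted, and only Dusp1 remained. The Dusp16 probe A_52_P374825 was counted without array 3, at -0.57, with array weights and with median centring.

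By the distance between the 4 log2 ratios of a gene's brightest probe and those of Dusp1, the nearest of 20603 genes was Bach2, a transcriptional repressor, at 0.26. It was followed by Tmem66 (0.56), Slc25a30 (0.78), Slc7a2 (0.84) and Dusp6 (0.84). Bach2 had log2 ratios of -1.39, -1.24, -1.75 and -0.90. As it was picked by its closeness to Dusp1 on these same ratios, its likeness to Dusp1 from array to array is no further result. Among the 5 genes nearest to Dusp6 were B3galt1 (0.43), Tbx3 (0.48), Ang4 (0.56) and Ang2 (0.57), and Dusp1 was in place 26. The measure covers 4 arrays and describes these ratios only.

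**Figure D3:**
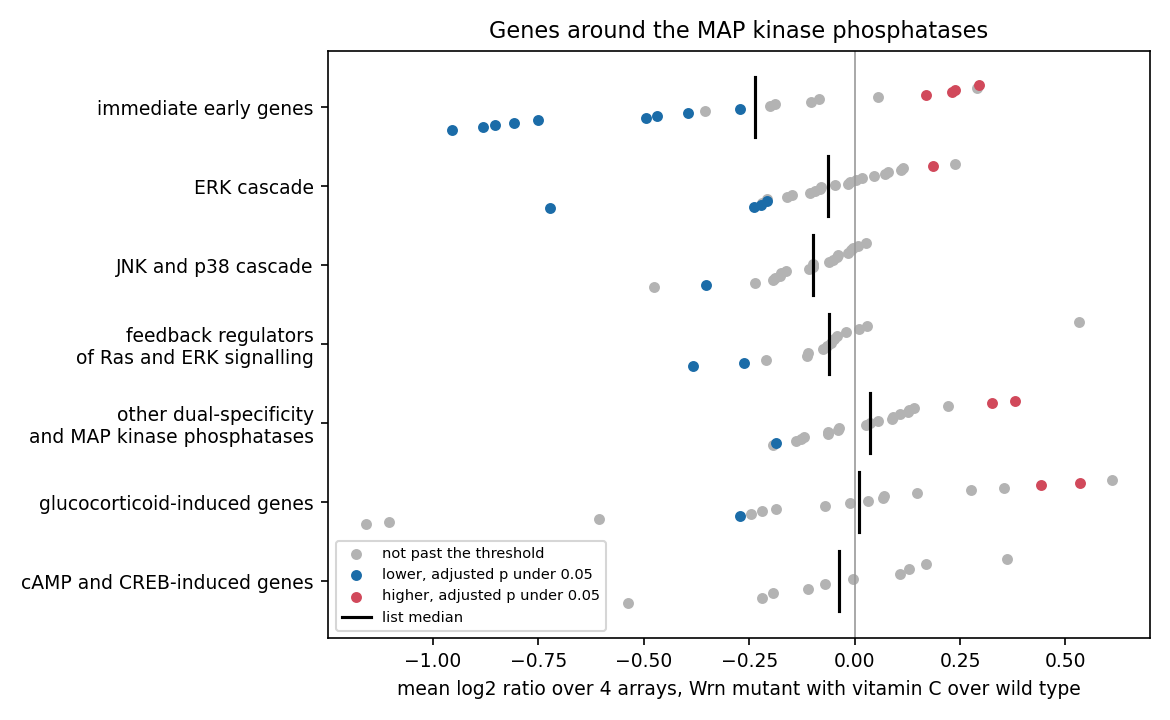
Mean log2 ratio over 4 arrays (x axis) of each gene in the 7 lists around the phosphatases (rows), 1 point per gene at its brightest probe, coloured by limma's call at an adjusted p of 0.05, with a black line at the list median. The immediate early genes have the lowest median, -0.24, and the medians of the other lists lie between -0.10 and 0.04.

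The genes around the phosphatases were described from 7 lists, chosen with results of these data known and so no independent evidence. Beside the list counts, 13.0% of all probes kept passed limma's threshold, 6.79% lower and 6.19% higher. Listed genes were counted once each, at their brightest probe, whereas the share over all probes counted every probe kept. The share of a list past the threshold was 65.0% for the immediate early genes and 20.8% for the ERK cascade. For the JNK and p38 cascade the share was 5.0%, and for the genes induced by cyclic AMP and CREB 0.0%. The share was 14.3% for the feedback regulators and for the other phosphatases, and 16.7% for the glucocorticoid-induced genes. These last shares lay near that of all probes, so nothing is read from those counts. Immediate early genes, transcribed within minutes of MAP kinase activation, had 20 members tested, of which 9 were lower, 4 were higher and 7 missed the threshold, with a median log2 ratio of -0.24. The lower ones ran from -0.95 to -0.27 and the higher ones from 0.17 to 0.29. The AP-1 subunit gene Junb had log2 ratios of -0.57, -1.52, -0.89 and -0.54, a mean of -0.88 ± 0.46 (limma adjusted p = 0.0213), and on its other probe -0.38 ± 0.38. Jun had -0.64, -1.21, -1.42 and -0.14, a mean of -0.85 ± 0.57 (limma adjusted p = 0.0359). Egr1, a zinc finger transcription factor, had -1.17, -1.77, -0.87 and -0.01, a mean of -0.95 ± 0.73 (limma adjusted p = 0.0482), and its adjusted p was above 0.05 in 10 of 15 alternatives, the highest being 0.403. For Jun, Egr1 and Dusp1 alike the ratio nearest 0 was that of array 4, at -0.14, -0.01 and -1.03. The wild-type animal of that array had the lowest level of its group for each of these genes. Higher were Btg1, an antiproliferative gene, Srf, the serum response factor, at 0.24 ± 0.08, and Egr2 at 0.23 ± 0.06. Btg1 was at 0.29 ± 0.09 (0.46 with median centring in place of loess). On its other probe it was at 0.10 ± 0.10 and did not pass (limma adjusted p = 0.229). The list had 4, 0, 5 and 7 genes past the test without array 1, 2, 3 or 4.

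Of 24 genes of the ERK cascade, from receptor to kinase targets, 1 was higher, 4 were lower and 19 missed the threshold, with a median of -0.06; median centring in place of loess turned this to 4 higher and 1 lower, with a median of 0.03, and a trended, robust moderation to 2 higher and 1 lower. Egfr, the epidermal growth factor receptor, was lower by the most, with -0.64, -0.81, -0.98 and -0.46 and a mean of -0.72 ± 0.22 (limma adjusted p = 0.0106), or -0.39 with median centring (limma adjusted p = 0.0489). Of its 6 probes 5 passed in this direction, and 1 was at 0.33 ± 0.92. The kinase genes Araf and Map2k2 were at -0.24 ± 0.10 and -0.22 ± 0.06, but with median centring at -0.07 and 0.021, where neither passed. Rps6ka1, a kinase downstream of ERK, was higher at 0.19 ± 0.07, on 1 of its 2 probes. The call was lost for Rps6ka1 in 9 of 15 alternatives and for Araf in 8. Without array 1, 2, 3 or 4 the list had 1, 0, 2 and 1 genes past the test. Of 20 genes of the JNK and p38 cascade 1 was lower, Map3k11 at -0.35 ± 0.13 (limma adjusted p = 0.0202), and 0 were higher; the median was -0.10, and 8 had an unadjusted p under 0.05. When a gene's probes were averaged 4 of these genes passed, and without array 1 the list had 2, but without array 2, 3 or 4 it had 0.

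Of 14 feedback regulators of Ras and ERK signalling 2 were lower, Spred2 and Rasa1, and 0 were higher, with a median of -0.06, or 0.02 with median centring. Spred2, an inhibitor of Ras signalling, was at -0.38 ± 0.12, and lower on both of its probes. Rasa1, a GTPase-activating protein of Ras, was at -0.26 ± 0.13, but its second probe was at 0.10 ± 0.12, and the call was lost in 8 of 15 alternatives. Among 21 other dual-specificity and MAP kinase phosphatases 1 was lower, 2 were higher and 18 missed the threshold, with a median of 0.04; with median centring 5 were higher and 0 lower. Dusp12 and Dusp14, atypical members of the wider Dusp family, were higher at 0.38 ± 0.07 (limma adjusted p = 0.0118) and 0.32 ± 0.14 (limma adjusted p = 0.0242), Dusp14 on both probes. Styx, a catalytically inactive relative, was at -0.19 ± 0.03, with a second probe at 0.19 ± 0.11, and lost its call in 9 of 15 alternatives. Leaving out array 1, 2, 3 or 4 gave 1, 0, 1 and 1 genes past the test in the feedback list, and 1, 0, 2 and 1 in the list of other phosphatases.

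Glucocorticoids and cyclic AMP both induce Dusp1 in hepatocytes, so genes known to respond to either were looked at. Of 18 glucocorticoid-induced genes tested 1 was lower, 2 were higher and 15 missed the threshold, with a median of 0.01; with median centring 4 were higher and 0 lower, with a median of 0.14. Tat, tyrosine aminotransferase, was at 0.54 ± 0.26 (1.09 with median centring) and Ddit4, an inhibitor of mTOR signalling, at 0.44 ± 0.25, whereas Nfkbia, the inhibitor of NF-kappaB, was at -0.27 ± 0.09 (-0.05 with median centring, where it did not pass). The metallothionein genes Mt1 and Mt2, singled out after their values were seen, had the lowest means of the list, -1.10 ± 1.38 and -1.16 ± 1.87. They did not pass, and over the mean of its 2 probes Mt1 was at -0.60. On array 4 they were at -3.17 and -3.93. The wild-type animal of that array had log2 levels of 15.27 and 16.47. In the other wild-type animals the levels were 11.87 to 12.11 for Mt1 and 12.14 to 12.21 for Mt2. Without array 1, 2 or 3 the list had 0 genes past the test and without array 4 it had 5. Of 10 genes induced by cyclic AMP and CREB 0 passed limma's test in either direction, 2 had an unadjusted p under 0.05, and the median was -0.04. Those of smallest p were Ppargc1a, a coactivator of gluconeogenic genes, at 0.17 ± 0.11 (limma adjusted p = 0.0798), and the nuclear receptor gene Nr4a1 at -0.54 ± 0.62 (limma adjusted p = 0.128), with -1.28 and -0.81 on arrays 2 and 3 but -0.09 and 0.04 on arrays 1 and 4.

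Markers of other liver cells were counted as well. Over all probes kept 6.79% were lower, and 4.28% of those measured on all arrays had every mutant level below every wild-type level. Of 6 cholangiocyte markers 2 were lower, 0 higher, and their summed intensity ran from 17974 to 23134 in the wild-type animals and from 13146 to 15428 in the mutants. Spp1, osteopontin, made up 81.4% to 90.6% of that sum, and the sums of the other 5 markers, computed after these values were seen, overlapped, from 2102 to 2352 and from 1632 to 2459; the second gene called was Sox9, on 1 of its 3 probes. Of 8 sinusoidal endothelial markers 2 were lower, 0 higher, with sums of 53710 to 64159 and 47053 to 51028. The largest part of these was Clec4g, at -0.35 on its brightest probe but -0.07 over the mean of its 3 probes. Without Clec4g the sums ran from 31203 to 35550 and from 27749 to 30291, still without overlap. The mean ratio was negative for all 8 endothelial markers on their brightest probes. All of these markers passed the filter on background. Of 8 hepatocyte markers 2 were higher, Alb at 0.85 and Ttr at 0.46, where 6.19% of all probes kept were higher. Another, Hnf4a, was lower at -0.25, called on 1 of its 3 probes. The hepatocyte sums overlapped, from 751649 to 990850 in the wild-type animals and from 936997 to 1059328 in the mutants. So did those of the 8 Kupffer cell and macrophage markers, from 57750 to 93828 and from 54123 to 75091, with 0 of these 8 past the test. Of 8 stellate cell and fibroblast markers 2 were lower, Col1a1 and Col3a1, with overlapping sums. Of 4 B cell markers 1 was lower, Cd79b, and of the erythroid, neutrophil and T and NK cell markers tested 0 passed. The sums of these lists overlapped too. The erythroid gene Hbb-b1 had log2 ratios of -1.68, 0.12, 2.17 and -0.42 on arrays 1 to 4, on its brightest probe. The part of these cells in the ratios of the Dusp genes was not tested.

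**Figure D4:**
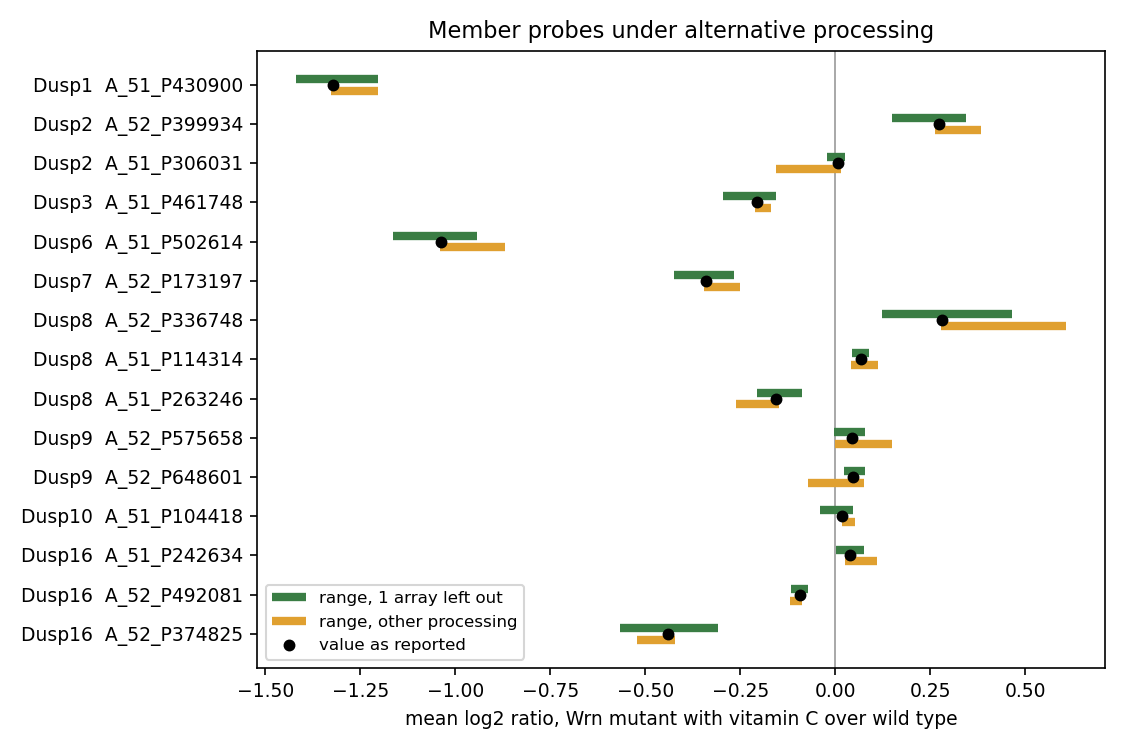
Mean log2 ratio (x axis) of each member probe (rows) as reported (black point), its range when each of the 4 arrays was left out in turn (green) and its range over the other 10 processing alternatives (orange, 9 for the dimmest Dusp8 probe). Over all of them Dusp1 stayed between -1.42 and -1.20 and Dusp6 between -1.16 and -0.87.

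Over 14 alternatives Dusp1 ran from -1.42 to -1.20 and Dusp6 from -1.16 to -0.87. Dusp7 ran from -0.42 to -0.25 and the lowest Dusp16 probe from -0.57 to -0.31, in each case by more than 1.5 times. The widest range among member probes was that of the Dusp8 probe rich in G and C, from 0.12 to 0.61, the latter with median centring. The authors' deposited table gave mean log2 ratios of -1.33 for Dusp1, -1.04 for Dusp6 and -0.35 for Dusp7, and over all 15 member probes its means differed from those here by at most 0.08.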

How the data were processed

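Per the file headers, Agilent Feature Extraction 10.5.1.1 read the spots' intensity values and the annotation is of build mm9. The deposited scanner files hold median foreground and background intensity values, processed signals (background-subtracted and dye-normalized), and a log10 ratio of them. The authors' deposited table of 43379 spots gives a log2 ratio per array and its mean, p-values before and after adjustment, and scores (moderated statistic, log odds, signed fold). The submitters' processing notes name limma, with no version.

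Here, median intensities were background-corrected (normexp, offset 50) and normalized by loess within arrays with limma 3.58.1 (R 4.3.3), giving control spots a weight of 0. Outlier and control spots were dropped and spots of a probe averaged. Of 41174 probes, 39080 were well above background on at least 3 arrays in Cy5 or in Cy3. Mean ratios were tested against 0 with lmFit and eBayes, Benjamini-Hochberg adjusted over these probes, on a script tested on simulated data. Levels per channel followed loess and Aquantile and are open to dye bias. The array pairs its 2 animals by design. The 4 arrays share 1 slide and 1 scan time. The brightest probe stood for a listed gene; 1 gene was found by an older symbol, and 4 list entries were not tested. Per list, up to 3 genes that passed 0.05 and kept their sign across arrays were named in each direction, or else the 2 of smallest p. The members and lists were chosen with earlier results of these data known. Alternatives covered background, normalization, source of the ratios, filter, moderation, array weights, pairing, probe rule and leaving out each array. Probes of related genes may cross-hybridise. Of the genes nearest to Dusp6, 1 is not reported here.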

Additional observations from a re-analysis of the deposited data

How the results depend on the processing

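Among all probes kept, 5076 passed, 2421 higher and 2655 lower; leaving out 1 array gave between 160 and 2270. Agilent's processed signals gave 1196. Median centring in place of loess gave 4292 higher and 3011 lower, 58.8% higher against 47.7%; a trended, robust moderation gave 3491 and 1769, 66.4% higher, and the fit without array 1 gave 483 and 1011, 32.3% higher. With no replicate block, that is with the pairing of animals within arrays ignored, 26 probes passed, 1 of the members (Dusp1), and 0 genes of every list. Member probes past the threshold numbered 2 to 3 when 1 array was left out and 5 with median centring, which added a higher Dusp8 probe and a lower Dusp16 probe; array weights gave 4, with Dusp16, and Agilent's processed signals and the trended, robust moderation 2 each, without Dusp7. Leaving out 1 array gave 0 to 7 immediate early genes, 0 to 2 each in the ERK cascade, the JNK and p38 cascade and the other phosphatases, 0 to 1 feedback regulators, and 0 to 5 glucocorticoid-induced genes. With Agilent's processed signals there were 6 immediate early genes, 1 gene of the ERK cascade, 0 of the JNK and p38 cascade, 0 feedback regulators and 1 glucocorticoid-induced gene. Median centring gave 2 genes of the JNK and p38 cascade, 5 other phosphatases and 1 gene induced by cyclic AMP, and turned Map2k2 to 0.021. A trended, robust moderation gave 3 genes of the ERK cascade and 1 feedback regulator. The JNK and p38 cascade had 3 genes without background correction, 2 with the strictest filter, 2 with array weights and 4 when a gene's probes were averaged. The cause of these changes was not tested. No sign changed for Dusp1, Dusp6, Dusp7, Dusp3 or any Dusp16 or Dusp8 probe in any alternative; signs changed for Dusp10, both Dusp9 probes and the Dusp2 probe A_51_P306031, the last reaching -0.16 with Agilent's processed signals.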
